A study of Mus musculus with 14 samples.

Results

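The 10 genes described here encode enzymes that release arachidonic acid from membranes or turn it into prostaglandins. They were taken by symbol from the gene counts and are 10 of the 24421 genes in the table: the cytosolic phospholipases Pla2g4a and Pla2g4e, the cyclooxygenases Ptgs1 and Ptgs2, the prostaglandin D synthases Ptgds and Hpgds, the prostaglandin E synthases Ptges, Ptges2 and Ptges3, and the prostacyclin synthase Ptgis. RNA of 14 naive male mice of the strain 129.C57Bl6 was sequenced, 1 library per mouse, from 7 mice labelled LPAR2-/- (knockout of lysophosphatidic acid receptor 2) and 7 wild-type controls (WT). The labels call all of them naive and name no treatment. The study's methods describe an allele that lacks part of exon 2 of the receptor gene, in a colony bred as homozygotes beside a colony of mixed-background controls, so that genotype and colony cannot be told apart. The labels give the hippocampus and an age of 10 to 12 weeks. The study's text also names the dentate gyrus, and the deposited design text calls the mice middle-aged to aged, so age and exact region are uncertain.

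Prostaglandin synthesis starts when a phospholipase A2 frees arachidonic acid. A cyclooxygenase converts it to prostaglandin H2, and a terminal synthase turns this intermediate into prostaglandin D2, E2 or prostacyclin, which act on G protein-coupled receptors and are then taken up and oxidised. In brain, lipocalin-type prostaglandin D synthase (Ptgds) is known for its abundance in the leptomeninges, prostacyclin synthase for vascular cells, and cyclooxygenase-2 (Ptgs2) for excitatory neurons, where synaptic activity induces it.

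Library totals ran from 15434620 to 23258949 counted reads per mouse. Counts of Lpar2 itself ran against the label: the libraries labelled LPAR2-/- held 144 to 234 and the WT libraries 27 to 66. Since reads were summed over whole genes, transcripts that carry the deletion were not separated from intact ones, and all directions below refer to the libraries as labelled. Markers of hippocampal neurons had a summed level of 4211 to 5315 CPM in mice labelled LPAR2-/- and 4184 to 5424 CPM in WT mice (CPM, counts per TMM-scaled library total). The largest parts of this sum were Snap25 and Slc17a7 (means of 2361 and 1498 CPM). Nptxr, Zbtb20 and Grin2a were low, with at most 4.61 CPM in any mouse. Among the mice labelled LPAR2-/-, mouse 2 held 242 CPM of the choroid plexus gene Ttr and mouse 3 held 4301 CPM of summed oligodendrocyte markers, against medians of 2.37 and 1496 CPM over the 7 mice of this genotype. Results on the 10 genes that change without these mice are given with their values without them.

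All 10 genes are protein-coding and were counted over their exons in mm10. On chromosome 2 lie Ptgds (chr2:25466712-25469749, minus strand), Ptges (chr2:30889471-30903297, minus), Ptges2 (chr2:32395890-32402740, plus), Ptgs1 (chr2:36230426-36252271, plus), Pla2g4e and Ptgis (chr2:167203196-167240537, minus). Pla2g4a (chr1:149829619-149961290, minus) and Ptgs2 (chr1:150100124-150108012, plus) lie near each other on chromosome 1, Hpgds on chromosome 6 (chr6:65117293-65144730, minus) and Ptges3 on chromosome 10 (chr10:128058982-128077254, plus). None lies on chromosome 8 with Lpar2.

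Of the 10 genes, all of which passed the filter on low counts, 1 passed a Benjamini-Hochberg adjusted p of 0.05 in the quasi-likelihood test of edgeR, beside 6.77% of the 14897 genes tested. This was Pla2g4e, which was higher in the mice labelled LPAR2-/-, beside 3.32% of all genes tested that were called higher. None was called lower, beside 3.46% of all. At an unadjusted p under 0.05 there were 3 of the 10 (Pla2g4e, Ptges3 and Ptgis), beside 22.4% of all genes tested. The median log2 fold change was 0.15 over the 10 genes and 0.00 over all genes tested. With 10 genes, these shares were too coarse to set the group apart from all genes. DESeq2 called 3 of the 10, adding Ptgis and Ptges3, against 9.35% of the 14897 genes tested.

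**Figure D1:**
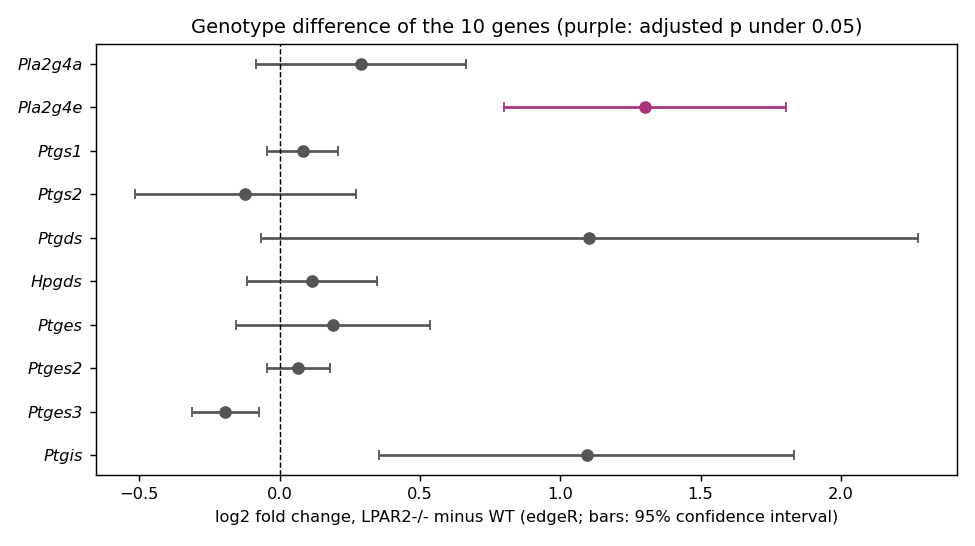
The horizontal axis gives the log2 fold change of each gene (mice labelled LPAR2-/- minus WT, 7 mice per genotype, edgeR), with its 95% confidence interval as a bar, and the vertical axis lists the 10 genes from phospholipases to prostacyclin synthase. Pla2g4e (1.30) is the gene past the threshold, and Ptgds and Ptgis have estimates nearly as large (1.10 and 1.09) with wider intervals.

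The sequence before the annotated start is shown for 3 of the genes: Pla2g4e, because it was the gene called, Ptgds, because it varied most between mice, and Ptgs2, because it is the inducible cyclooxygenase. The 250 bases before the RefSeq start on the gene's own strand (GRCm38.p6, the assembly of mm10) are given 5′ to 3′, for Pla2g4e chr2:120245336-120245585 (minus strand), for Ptgds chr2:25469750-25469999 (minus strand) and for Ptgs2 chr1:150099781-150100030 (plus strand). Capitals mark letters that match, on either strand, the TATA box TATAAA, the partial cAMP response element TGACG, the E-box CACGTG or the short GC box GGGCGG.
Pla2g4e: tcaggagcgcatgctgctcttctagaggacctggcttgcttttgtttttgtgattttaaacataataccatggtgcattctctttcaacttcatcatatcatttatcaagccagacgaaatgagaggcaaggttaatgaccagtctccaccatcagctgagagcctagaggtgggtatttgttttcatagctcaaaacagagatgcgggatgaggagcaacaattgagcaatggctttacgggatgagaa
Ptgds: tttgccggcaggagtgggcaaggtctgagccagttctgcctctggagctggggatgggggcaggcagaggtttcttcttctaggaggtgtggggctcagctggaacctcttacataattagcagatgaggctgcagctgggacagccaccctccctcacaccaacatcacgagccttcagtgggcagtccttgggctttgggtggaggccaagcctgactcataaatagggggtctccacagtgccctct
Ptgs2: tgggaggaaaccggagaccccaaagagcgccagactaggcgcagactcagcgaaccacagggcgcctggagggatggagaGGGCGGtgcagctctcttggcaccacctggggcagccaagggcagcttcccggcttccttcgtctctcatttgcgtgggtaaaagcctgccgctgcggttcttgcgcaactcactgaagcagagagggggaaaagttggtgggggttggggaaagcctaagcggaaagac

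A promoter window of 300 bases (250 before and 50 after the start) was given for 9 of the 10 genes. Ptgis was not matched. In the windows of Pla2g4e and Ptgds none of the 4 sets of letters occurred. The window of Ptgs2 held GGGCGG 170 to 165 bases before the RefSeq start, and, in the part after that start that is not printed, TGACG on the other strand at bases 14 to 18 and CACGTG at bases 17 to 22, which overlap. The counted exons of Ptgs2 begin further downstream (chr1:150100124), so that these matches all lie before the counted start. Among the 9 genes, GGGCGG was found in 3 (Ptgs2, Ptges and Ptges3), TGACG in 2 (Ptgs2 and Ptges3), CACGTG in 2 (Ptgs2 and Ptges2) and TATAAA in 1 (Pla2g4a). Of 32817 windows, 35.6% held GGGCGG, 20.8% TGACG, 7.15% CACGTG and 13.6% TATAAA. The GC content was 46.0% for Pla2g4e and 73.7% for Ptges3, and the median window had 52.7%. These matches describe letters in the sequence and were not tested against the counts.

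Pla2g4e encodes the epsilon form of cytosolic phospholipase A2, known as a calcium-dependent N-acyltransferase that forms N-acylphosphatidylethanolamines, precursors of anandamide and related lipids. It was counted on chromosome 2 of mm10 (chr2:120166412-120245335, minus strand), where the GENCODE annotation also places the predicted gene Gm13997 on the same strand, which has no row in the table. The mice labelled LPAR2-/- had 25.5 to 51.3 CPM (median 30.2) and the WT mice 9.50 to 24.0 CPM (median 11.2), from 482 to 804 and 190 to 507 counts. The lowest mouse labelled LPAR2-/- was above the highest WT mouse, so that the groups did not overlap, which held for 1.77% of the genes tested. The gap was narrow, because WT mice 1 and 7 (24.0 and 20.8 CPM) lay apart from the other WT mice (9.50 to 11.9 CPM). Mice 1 and 7 labelled LPAR2-/- were likewise the highest of their group (41.2 and 51.3 CPM). The genotypes differed by a log2 fold change of 1.30 (95% interval 0.80 to 1.80, adjusted p = 0.00558 from edgeR), or a 2.46-fold higher level. The exact two-sided permutation test gave p = 0.000583, the smallest that 7 mice against 7 allow. Removing any single mouse left the adjusted p between 0.00125 and 0.0160. Without mice 2 and 3 labelled LPAR2-/- it was 1.37 (adjusted p = 0.0108).

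Variation of Pla2g4e between mice was larger than usual for its abundance. The coefficient of variation was 41.6% over WT mice and 26.0% over mice labelled LPAR2-/-, whereas the median over all genes tested was 8.74% and 9.54%. In the count model the biological coefficient of variation was 29.7%, against 11.1% for the trend of genes with like counts. The neighbouring members of the family on chromosome 2 gave few reads: Pla2g4b had 0 to 8, Pla2g4d 0 to 4 and Pla2g4f 1 to 6 counts per mouse, and they were not tested.

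Pla2g4a, the alpha form that is the main calcium-regulated source of arachidonic acid for prostaglandins, showed a smaller difference. It had 3.69 to 6.29 CPM (median 4.29) in mice labelled LPAR2-/- and 2.44 to 5.58 CPM (median 3.47) in WT mice. The ranges overlapped, although all 7 mice labelled LPAR2-/- were above the WT median. The log2 fold change of 0.29 (95% interval −0.08 to 0.67, adjusted p = 0.354 from edgeR) did not pass the test.

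**Figure D2:**
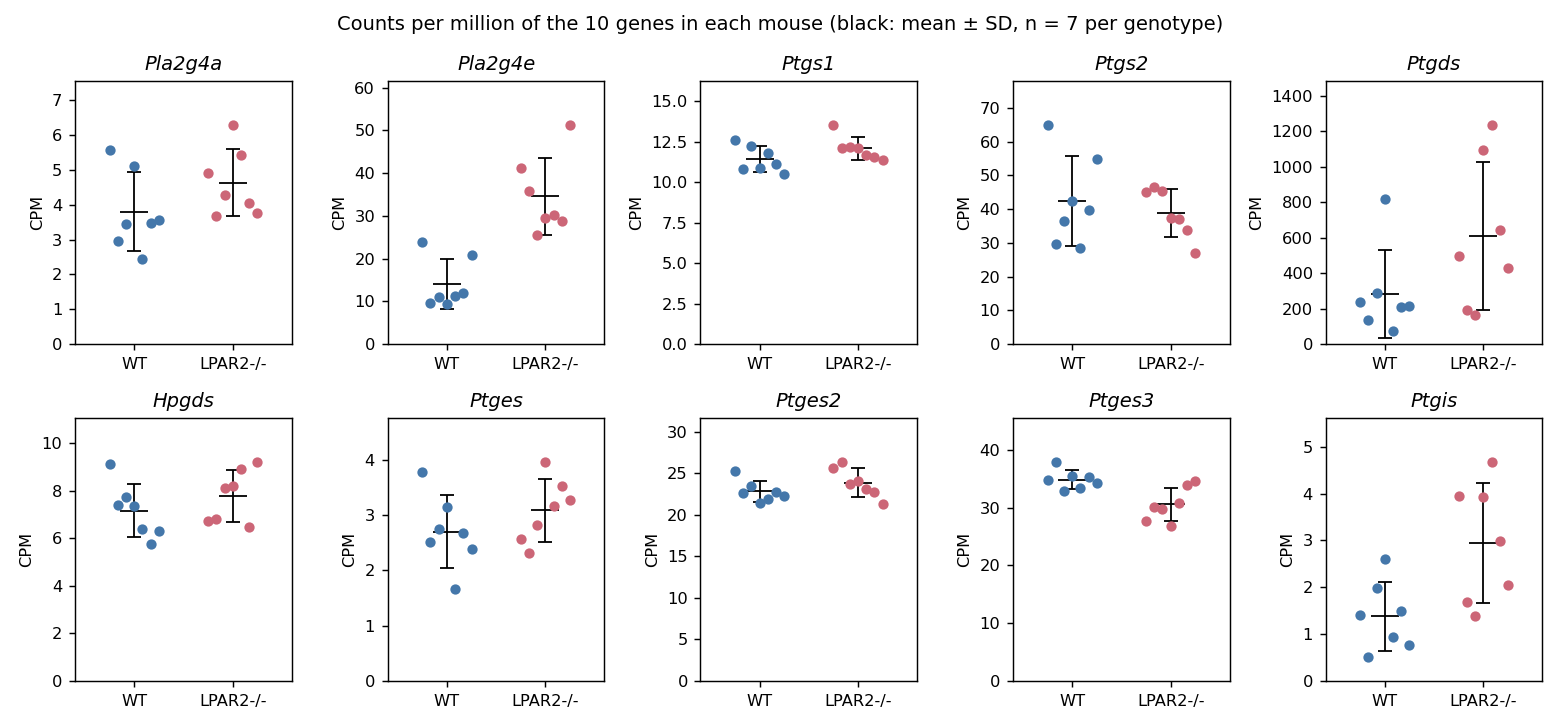
Each panel plots the level (CPM, linear axis from 0) of 1 gene in each mouse, WT on the left and mice labelled LPAR2-/- on the right, with the mean and SD of 7 mice in black. The groups are apart for Pla2g4e (9.50 to 24.0 against 25.5 to 51.3 CPM) and overlap for the other 9 genes, with a wide spread for Ptgds (75.8 to 1235 CPM).

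The cyclooxygenases showed no difference past the threshold. Ptgs1 (cyclooxygenase-1, the constitutive form) had 11.4 to 13.5 CPM (median 12.1) in mice labelled LPAR2-/- and 10.5 to 12.6 CPM (median 11.1) in WT mice, and its highest and lowest mouse differed by 1.29 times. Its log2 fold change was 0.08 (95% interval −0.04 to 0.21, adjusted p = 0.444 from edgeR), so that the interval allows at most a small change in either direction.

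Ptgs2 (cyclooxygenase-2, the inducible form) had 26.9 to 46.5 CPM (median 37.3) in mice labelled LPAR2-/- and 28.5 to 65.0 CPM (median 39.9) in WT mice. The WT mice 1 and 7, which had the highest Pla2g4e of their group, also had the highest Ptgs2 (65.0 and 55.0 CPM). The log2 fold change of Ptgs2 was −0.12 (95% interval −0.52 to 0.27, adjusted p = 0.749 from edgeR), and without WT mouse 1 it was 0.01. Of 18 activity-related genes of neurons, immediate early genes in the main, 10 were lower past the threshold in the mice labelled LPAR2-/-, beside 3.46% of all genes tested, and none was higher. These were Fos, Fosb, Fosl2, Arc, Egr2, Npas4, Nr4a1, Nr4a2, Dusp1 and Nptx2, and this list was chosen with its direction in these samples known. Among them were Fos (1.95 to 5.12 CPM against 5.13 to 22.6 CPM, log2 fold change −1.86, adjusted p = 0.00781) and Egr2 (log2 fold change −2.50, adjusted p = 0.00441), while Egr3 and Nr4a3 were among those that did not pass (log2 fold change −0.17 and −0.20). Nr4a1 and Dusp1 passed in 4 and 5 of 14 fits with 1 mouse removed, and Arc, Nr4a1 and Dusp1 did not pass with the replicate block. The median log2 fold change of the 18 genes was −0.56. The difference between Ptgs2 and the list was not itself tested. TGACG occurred in 12 of the 13 promoter windows matched for these genes, beside 20.8% of all windows, and GGGCGG in 10 of the 13, beside 35.6%.

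Ptgds, the lipocalin-type prostaglandin D synthase, had the highest level of the 10 genes and the widest spread. It had 166 to 1235 CPM (median 498) in mice labelled LPAR2-/- and 75.8 to 817 CPM (median 218) in WT mice. Mice 4 and 5 labelled LPAR2-/- (1096 and 1235 CPM) lay above every WT mouse, mice 2 and 3 (194 and 166 CPM) lay below the WT median, and WT mouse 4 (817 CPM) lay above all but mice 4 and 5 of the other genotype. The highest mouse had 16.3 times the level of the lowest. Its mean difference, a log2 fold change of 1.10 (95% interval −0.07 to 2.28, adjusted p = 0.252 from edgeR), did not pass the test, and the exact two-sided permutation test gave p = 0.0787. Its biological coefficient of variation was 67.3% against 8.52% for the trend, so that a mean difference of 2.15-fold was within the spread of these mice. Leaving out 1 mouse at a time moved the log2 fold change from 0.84 (without mouse 5 labelled LPAR2-/-) to 1.65 (without WT mouse 4), with adjusted p between 0.0698 and 0.414. Without mice 2 and 3 labelled LPAR2-/-, which had the lowest Ptgds of their group, it was 1.46 (adjusted p = 0.122).

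Hpgds, the haematopoietic prostaglandin D synthase known from microglia and mast cells, varied far less. It had 6.45 to 9.22 CPM (median 8.10) in mice labelled LPAR2-/- and 5.77 to 9.12 CPM (median 7.35) in WT mice. Its log2 fold change of 0.12 (95% interval −0.12 to 0.35, adjusted p = 0.573 from edgeR) was within the spread of the mice.

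Of the 3 prostaglandin E synthases, Ptges3 stood closest to the threshold. Ptges3, also known as p23, is a co-chaperone of Hsp90 as well as a cytosolic synthase. It had 26.8 to 34.6 CPM (median 30.2) in mice labelled LPAR2-/- and 32.9 to 38.0 CPM (median 34.7) in WT mice. All 7 mice labelled LPAR2-/- were below the WT median and 5 of them below every WT mouse, while mice 6 and 7 lay inside the WT range. The log2 fold change was −0.19 (95% interval −0.31 to −0.07, exact two-sided permutation p = 0.00758), with an adjusted p of 0.0508 from edgeR. This is a 0.875-fold level, and the call depends on the procedure: DESeq2 gave an adjusted p of 0.0200, DESeq2 size factors in edgeR 0.0477 and the replicate block 0.0863. Without mice 2 and 3 labelled LPAR2-/- the adjusted p was 0.108 and, over the removal of single mice, it ran from 0.0251 (without mouse 7 labelled LPAR2-/-) to 0.119 (without WT mouse 2).

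Ptges, the microsomal inducible form that is coupled to cyclooxygenase-2, had 2.30 to 3.96 CPM (median 3.16) in mice labelled LPAR2-/- and 1.66 to 3.78 CPM (median 2.67) in WT mice, with a log2 fold change of 0.19 (95% interval −0.16 to 0.54, adjusted p = 0.531 from edgeR). Ptges2, the membrane-associated form, had 21.4 to 26.4 CPM (median 23.7) and 21.5 to 25.3 CPM (median 22.7), with a log2 fold change of 0.07 (95% interval −0.05 to 0.18, adjusted p = 0.499). Neither passed the test, and the 3 synthases did not share a direction.

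Ptgis, prostacyclin synthase, was among the least abundant of the genes, with 32 to 91 counts per mouse labelled LPAR2-/- and 11 to 52 counts per WT mouse. It had 1.39 to 4.68 CPM (median 2.99) and 0.50 to 2.60 CPM (median 1.42), and 4 mice labelled LPAR2-/- lay above every WT mouse. The log2 fold change of 1.09 (95% interval 0.35 to 1.83, unadjusted p = 0.00651, adjusted p = 0.0735 from edgeR) did not pass the test over all genes. The exact two-sided permutation test of this gene alone gave p = 0.0169, and 6 of 7 mice labelled LPAR2-/- were above the WT median. DESeq2 called it (adjusted p = 0.0231), and so did edgeR without mice 2 and 3 labelled LPAR2-/- (log2 fold change 1.36, adjusted p = 0.0249), without mouse 3 alone (0.0369) and without WT mouse 4 (0.0431). Mice 2 and 3 also had the lowest Ptgis of their group, so their removal raises its mean.

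**Figure D3:**
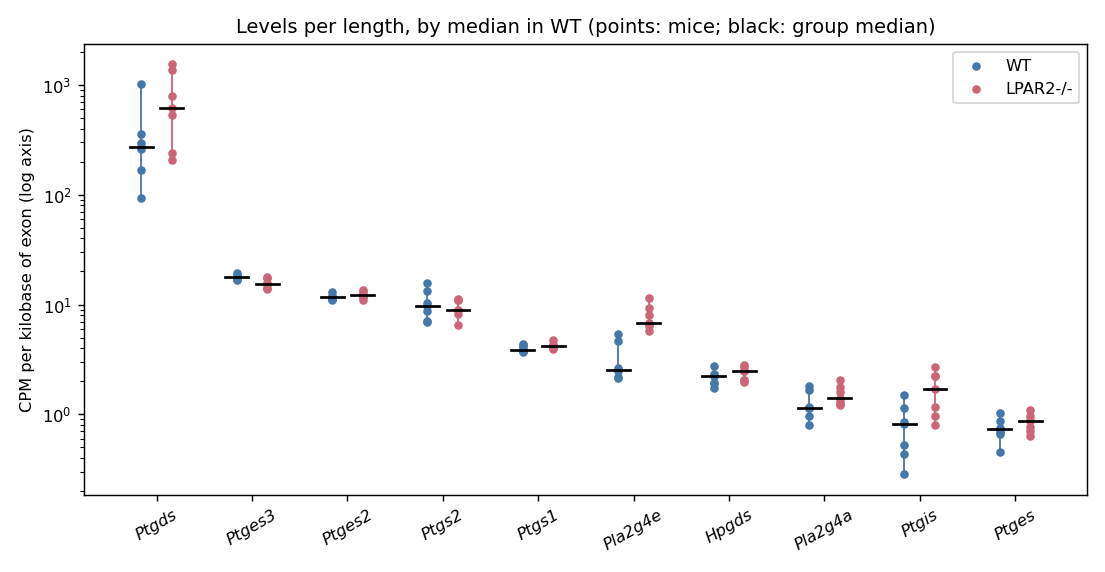
The vertical axis gives CPM per kilobase of counted exon on a log axis, and the horizontal axis the 10 genes in the order of their WT median, with points for mice, a line from the lowest to the highest mouse and a black bar for each group median. Ptgds (WT median 270 CPM per kilobase) lies above all other genes, which run from 17.8 (Ptges3) to 0.731 (Ptges).

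Levels of different genes were compared per length of counted exon. In WT mice the median was 270 CPM per kilobase for Ptgds, 17.8 for Ptges3, 11.6 for Ptges2, 9.62 for Ptgs2, 3.87 for Ptgs1, 2.51 for Pla2g4e, 2.23 for Hpgds, 1.14 for Pla2g4a, 0.810 for Ptgis and 0.731 for Ptges. Ptgds was 15.2 times above the next gene, and the ranges of the WT mice parted Ptgds from Ptges3, Ptges3 from Ptges2 and Ptgs2 from Ptgs1. All other neighbours in this order overlapped between WT mice and were not told apart. In the mice labelled LPAR2-/-, the median level of Pla2g4e per kilobase was 6.75, above that of Ptgs1 (4.22), and the ranges of these genes did not overlap (5.69 to 11.5 and 3.97 to 4.72). In WT mice the order of their medians was the reverse, with overlapping ranges.

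The levels of some genes followed those of cell type markers from mouse to mouse. In whole-tissue RNA, fewer cells of a type and less RNA per cell cannot be told apart. For each mouse, the log2 CPM of the markers of a cell type was averaged, genotype means were removed, and each of the 10 genes was set against each of 9 marker lists, giving 90 relations over 14 mice, of which 9 passed an adjusted p of 0.05 (permutation within genotype, 100000 draws, Benjamini-Hochberg over the 90). These relations were computed after the values had been seen.

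Ptgds followed the markers of meningeal fibroblasts and arachnoid. Pearson's r was 0.98 (adjusted permutation p = 0.00045) and Spearman's rho 0.96 (adjusted permutation p = 0.0018). The correlation was 0.98 within each genotype, and 0.98 without the 2 mice farthest from the median of the markers. Of the 20 markers, all tested, 19 were higher in the mice labelled LPAR2-/- (median log2 fold change 1.14) and 1 passed the threshold, Lum. Their summed level was 243 to 931 CPM in mice labelled LPAR2-/- and 167 to 642 CPM in WT mice, with Igf2 at 31.8 to 175 and 19.8 to 140 CPM, Fn1 at 40.0 to 121 and 32.5 to 82.9 CPM, and Ogn at 23.7 to 50.7 and 18.2 to 39.2 CPM. No marker was at 0 in every mouse, and the lowest, Slc22a2, had 0 counts in at least 1 WT mouse. The averaged score was 4.09 ± 0.822 in mice labelled LPAR2-/- and 3.12 ± 0.717 in WT mice (log2 CPM, SD, n = 7, exact permutation p = 0.0408, adjusted over 9 lists 0.122). Mice 4 and 5 labelled LPAR2-/- and WT mouse 4 were high in both Ptgds and these markers, and the part of these cells in the values of Ptgds was not tested. With the choroid plexus markers r was −0.04 over all mice, 0.78 within WT mice, −0.28 within the mice labelled LPAR2-/- and 0.44 without the 2 farthest mice. With the oligodendrocyte markers it was −0.13, 0.54, −0.40 and 0.46 in the same order, and the mice removed were labelled LPAR2-/- in both cases.

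**Figure D4:**
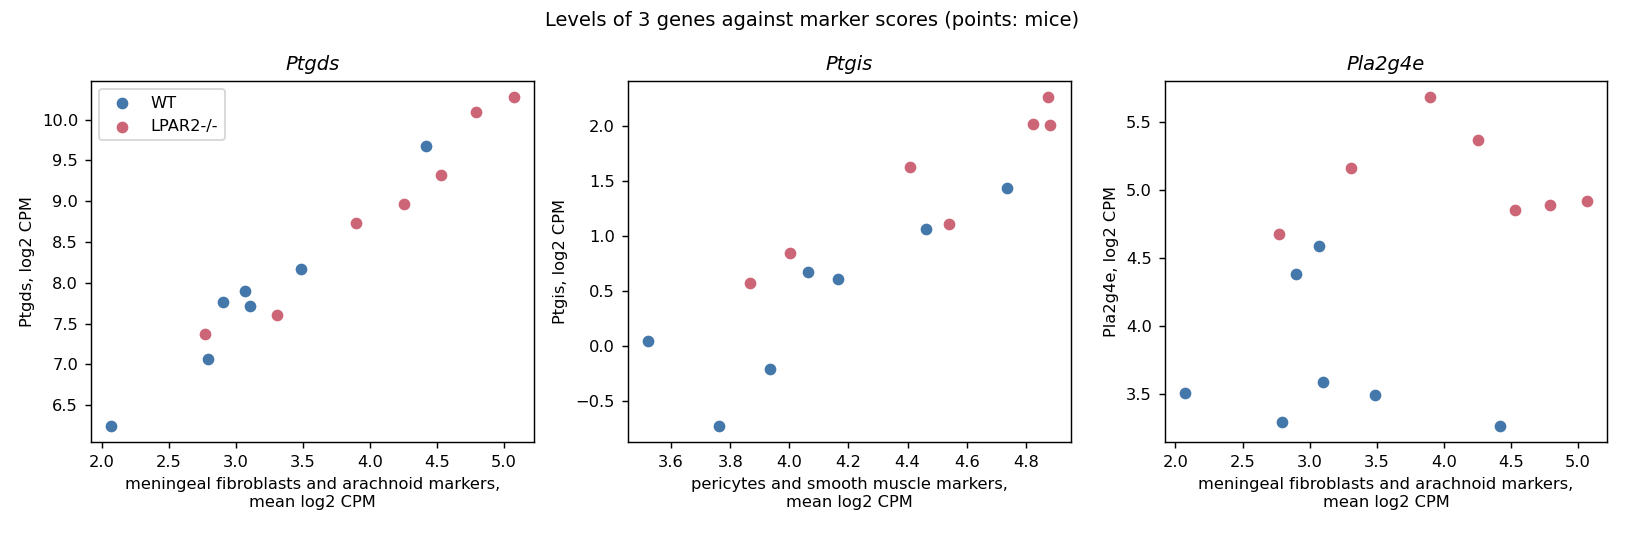
Each point is a mouse, and the axes give the log2 CPM of a gene (vertical) and the mean log2 CPM of a marker list (horizontal) for Ptgds with meningeal markers, Ptgis with markers of pericytes and smooth muscle, and Pla2g4e with meningeal markers. Ptgds rises along 1 line in both genotypes (r = 0.98 with genotype means removed), Ptgis follows with r = 0.89, and Pla2g4e shows no such trend (r = −0.12), its 2 genotypes lying at different heights.

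Ptgds also went with the markers of pericytes and smooth muscle (r = 0.93, adjusted permutation p = 0.00045) and of endothelium (r = 0.88, adjusted permutation p = 0.0036). The scores share libraries and were not separated from each other. Ptgis went with pericytes and smooth muscle (r = 0.89, adjusted permutation p = 0.0036; rho = 0.88), with r of 0.93 within the mice labelled LPAR2-/-, 0.85 within WT mice and 0.83 without the 2 farthest mice. Its correlation with the meningeal markers was 0.84 (adjusted permutation p = 0.00558) and with endothelium 0.76 (0.0368). Of the 8 markers of pericytes and smooth muscle, 5 were higher and 3 lower in mice labelled LPAR2-/- and none passed the threshold. The 5 higher were Pdgfrb, Vtn, Acta2, Tagln and Myh11 (log2 fold change 0.31 to 0.93). The 3 lower were Rgs5, Kcnj8 and Abcc9 (−0.05, −0.09 and −0.20). Acta2, the smooth muscle actin, ranged from 12.0 to 70.2 and from 9.04 to 58.5 CPM, and Vtn from 56.3 to 108 and from 41.7 to 93.1 CPM. The score differed by 0.39 (exact permutation p = 0.101, adjusted 0.228). Its part in the difference of Ptgis was not tested.

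Of the other genes, Pla2g4a went with endothelium (r = 0.76, adjusted permutation p = 0.0368, and 0.60 without the 2 farthest mice). Ptges went with microglia (r = 0.78, adjusted permutation p = 0.0368, and 0.65 without them), whereas Hpgds, with r = 0.67 for microglia, did not pass (adjusted permutation p = 0.111) and had r = 0.45 without them, WT mouse 1 among them. Ptgs2 went with the markers of hippocampal neurons (r = 0.66, adjusted permutation p = 0.0368; rho = 0.78), with 0.71 within the mice labelled LPAR2-/-, 0.82 within WT mice and 0.82 without the 2 farthest. For Pla2g4e no relation passed, and r ran from −0.51 (astrocytes) to 0.26 (microglia). The scores of microglia, endothelium and hippocampal neurons differed between the genotypes by 0.04, 0.06 and −0.04, with an adjusted exact permutation p of 0.667 each.

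**Figure D5:**
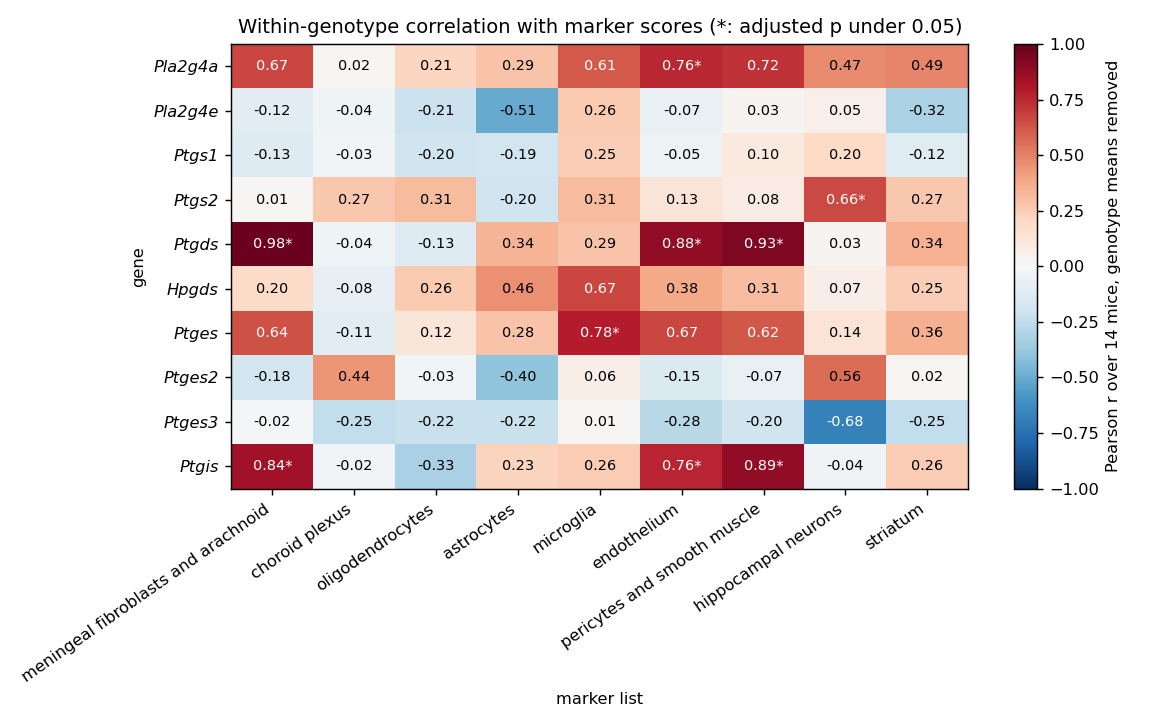
Rows are the 10 genes and columns the 9 marker lists, and each cell gives Pearson's r over 14 mice after removal of the genotype means, blue to red from −1 to 1, with a star where the adjusted permutation p is under 0.05. The 9 stars lie in the rows of Ptgds (3), Ptgis (3), Pla2g4a, Ptges and Ptgs2, and the row of Pla2g4e has none.

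Among the 10 genes themselves, 4 of 45 pairs passed an adjusted p of 0.05 for Pearson's r, and none did for Spearman's rho. Ptgds and Ptgis went together (r = 0.83, adjusted permutation p = 0.0211; rho = 0.81, adjusted permutation p = 0.0679), with r = 0.82 without the 2 farthest mice. Ptgds and Pla2g4a (r = 0.74), Ptges and Pla2g4a (0.78), and Ptgs1 and Ptges2 (0.71) had an adjusted permutation p of 0.0388 each, and their r fell to between 0.49 and 0.59 without the 2 farthest mice. Pla2g4e and Ptgs2, both high in WT mice 1 and 7, had r = 0.85 within WT mice and −0.43 within the mice labelled LPAR2-/- (r = 0.47 over all, adjusted permutation p = 0.402).

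The genes with the most similar pattern across the 14 mice, after removal of the genotype means, were sought among 14081 tested genes with a mean of at least 1 CPM. As a description without a test, these were for Ptgds the genes Slc6a20a (r = 0.98), Aebp1 (0.98), Vtn (0.98), Wfikkn2 (0.97) and Slc22a6 (0.97), of which Aebp1 and Slc22a6 are on the meningeal list and Vtn is on that of pericytes and smooth muscle. For Ptgis they were Cytl1 (0.96), Tpm2 (0.95), Mgp (0.93), Mylk (0.92) and Tagln (0.92). For Ptgs2 they were Hpca (0.92), Nxpe3 (0.92), Dolk (0.91), Fhl2 (0.90) and Vamp1 (0.90), and for Pla2g4e they were Ccne1 (0.92), Denr (0.89), Cltb (0.88), Nt5dc1 (0.88) and Armcx5 (0.88).

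The further steps of the pathway are given beside the 6.77% of all genes tested that were called. Of 6 other enzymes of prostanoid synthesis that were tested, none passed the adjusted threshold in edgeR and 1 had an unadjusted p under 0.05 (Cbr3, log2 fold change 0.23, adjusted p = 0.149). DESeq2 called none of them. Their median log2 fold change was 0.06, and the most abundant, the carbonyl reductase Cbr1 and the prostamide synthase Fam213b, had log2 fold changes of −0.01 and 0.08.

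Of 8 prostanoid receptors tested, 1 passed the threshold. Ptger2, the EP2 receptor for prostaglandin E2, had 0.768 to 1.67 CPM in mice labelled LPAR2-/- (15 to 31 counts) and 0.292 to 0.914 CPM in WT mice (5 to 19 counts), with overlapping ranges. Its log2 fold change was 0.77 (95% interval 0.29 to 1.25, adjusted p = 0.0496 from edgeR), and it passed in 2 of 14 fits with 1 mouse removed (highest adjusted p 0.102) and not without mice 2 and 3 labelled LPAR2-/- (adjusted p = 0.0514). The call was also lost without a filter, with at least 10 counts in every library, with either limma fit and with the replicate block. Ptgdr, a receptor for prostaglandin D2, had a log2 fold change of 0.77 that did not pass (adjusted p = 0.392), with 0.390 to 2.28 and 0.196 to 2.80 CPM. Ptgdr2, the other such receptor, had 0.03 (adjusted p = 0.967 from edgeR). Ptgfrn, a regulator of the prostaglandin F receptor, and Ptger1, the EP1 receptor, were the most abundant of the list and had log2 fold changes of −0.08 each, and Ptger3 and Ptgir were too low to test, with at most 12 counts per mouse.

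Of 7 genes of prostanoid transport and breakdown, 2 were lower and none was higher past the threshold. Hpgd, the 15-hydroxyprostaglandin dehydrogenase that inactivates prostaglandins, had 3.07 to 6.02 CPM (median 3.58) in mice labelled LPAR2-/- and 5.33 to 8.88 CPM (median 7.65) in WT mice. Only mouse 3 labelled LPAR2-/- (6.02 CPM) lay inside the WT range. With a log2 fold change of −0.86 (95% interval −1.20 to −0.53, adjusted p = 0.00433 from edgeR), it passed in all 14 fits with 1 mouse removed. Hpgd lies on chromosome 8 (chr8:56294552-56321046), 13.5 Mb from Lpar2, and the part of this linkage was not tested. Ptgr1, a prostaglandin reductase, had 4.11 to 7.82 and 6.76 to 10.2 CPM and a log2 fold change of −0.45 (adjusted p = 0.0489), which passed in 3 of the 14 fits and did not pass without mice 2 and 3 labelled LPAR2-/- (adjusted p = 0.111). Ptgr2 and Zadh2, the most abundant of the list, had log2 fold changes of 0.11 and −0.01, and the transporter Slco2a1 had 0.07.

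Of 13 other phospholipases A2 tested, 1 passed the threshold. Pla2g2f, a secreted phospholipase A2, had 3.26 to 10.1 CPM (median 6.14) in mice labelled LPAR2-/- and 7.47 to 15.4 CPM (median 12.4) in WT mice, opposite in direction to Pla2g4e. The log2 fold change was −0.97 (95% interval −1.45 to −0.49, adjusted p = 0.0206 from edgeR), and the call was lost with the replicate block (adjusted p = 0.0566). The most abundant, Pafah1b2 and Pla2g7, had log2 fold changes of −0.06 each. Of 23 genes of other arachidonate release and routes, Cyp4f13, a cytochrome P450 (log2 fold change 0.36, adjusted p = 0.0128), and Ephx1, an epoxide hydrolase (0.33, adjusted p = 0.0451), were higher, and Ephx1 passed in 4 of 14 fits with 1 mouse removed and not without mice 2 and 3 labelled LPAR2-/- (adjusted p = 0.122). The most abundant, the diacylglycerol lipase Dagla and the fatty acid amide hydrolase Faah, had log2 fold changes of −0.02 and 0.06. The 5 lipoxygenases tested did not pass: Alox12b had a log2 fold change of −0.82 (0.896 to 4.03 against 1.55 to 5.72 CPM, unadjusted p = 0.0149, adjusted p = 0.116 from edgeR), and Alox5, Alox12, Alox8 and Aloxe3 had log2 fold changes between −0.08 and 0.18.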

How the data were processed

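Ribosome-depleted RNA libraries were sequenced by the authors on an Illumina instrument. Per the labels and the file header, the authors used cutadapt 1.18 for trimming, STAR for alignment (mm10) and featureCounts 1.6.3 for counting on exons of the reverse strand, which by default leaves out reads that match several places or genes. These deposited counts carry no normalization and were the main data. Deposited normalized values of another kind (counts divided by DESeq2 1.22.2 size factors and by gene length, 99.9% of them within 1% of values rebuilt from the counts) served as an alternative. Groups were taken from the labels.

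In R 4.3.3 with edgeR 4.0.16, 14897 of 24421 genes passed filterByExpr and were tested after TMM with the robust quasi-likelihood F test, without covariates and with Benjamini-Hochberg adjustment at 0.05. CPM on the log2 scale carry a prior count of 2. Single values were compared by exact two-sided permutation over 3432 arrangements of the 14 mice. Lists of markers were averaged per mouse over the genes tested. Python 3 scripts with scipy and numpy did the permutations. On simulated counts with 200 of 14897 genes changed between the genotypes, edgeR recovered 83% at 1.5-fold and 92% at 2-fold, with 5.41% of calls on genes that had not been changed, and DESeq2 recovered 83% and 90%, with 13.1% of such calls. edgeR called 0 genes where none had been changed. Each simulated gene was given only the trend spread of genes with like counts. The biological coefficient of variation of Ptgds, Ptgis and Pla2g4e was above that trend (67.3%, 42.6% and 29.7%, against 8.52%, 21.2% and 11.1%). The simulated rates therefore do not apply to genes with such a spread. The deposited design text calls the libraries of a genotype biological replicates. No 2 libraries of a genotype were copies (chi-square per degree of freedom at least 3.41 over 42 pairs).

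The 10 genes and all lists were chosen with earlier results of these data known. Named genes were the 10 members, Lpar2, list members past the threshold, the 2 most abundant of each pathway list, up to 4 of the most abundant of each marker list, and the 5 genes most like Ptgds, Ptgis, Ptgs2 and Pla2g4e. Cbr3, Ptgdr, Ptgdr2, Ptger3, Ptgir, Slco2a1, Slc22a2, the Pla2g4 neighbours, Lum and the lipoxygenases were added after their values had been seen. So were Myh11, Kcnj8, Abcc9, Nptxr, Zbtb20 and Grin2a. Alternatives were DESeq2 1.42.0, other size factors, other filters, limma 3.58.1 on the normalized values (pseudocount 1 or none), the replicate block, each mouse left out, and, chosen after seeing the data, mice 2 and 3 labelled LPAR2-/- left out together. Promoter windows came from RefSeq (GRCm38.p6).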

Additional observations from a re-analysis of the deposited data

Results flagged for a closer look

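Of 38 groups of 7 mice in which the highest and lowest value were compared with the others (10 genes and 9 marker scores, each in both genotypes), 2 held a mouse whose gap to its neighbour took up more of the range of the group than Dixon's 95% critical value. Chance gives this in about 1 of 20 groups. In the mice labelled LPAR2-/-, the Ptgs1 level of mouse 1 was 3.77 log2 CPM, the next mouse had 3.62 and the lowest 3.52. In the WT mice, the microglia marker score of mouse 1 was 5.16 mean log2 CPM, the next had 4.87 and the lowest 4.71. This WT mouse also had the highest level of its group for 7 of the 10 genes, all but Ptgds, Ptgis and Ptges3. Whether these belong together was not tested.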

How the results depend on the processing

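The difference of Pla2g4e kept its direction and passed the threshold in all 23 alternatives (log2 fold change 1.10 to 1.49, adjusted p at most 0.0160). Ptgds passed in 0 of 23 (0.84 to 1.65). Ptgis passed in 4 (0.57 to 1.36): DESeq2 (1.10), without both mice 2 and 3 labelled LPAR2-/- (1.36), and 2 fits that left out 1 mouse, which gave 0.94 to 1.33 overall. Ptges3 passed in 5 (−0.22 to −0.16): DESeq2 (−0.20), DESeq2 size factors (−0.19), at least 10 counts in every library (−0.19) and 2 fits without 1 mouse (from −0.22 to −0.16). The other 6 genes passed in none. The count of the 10 genes called was thus 3 with DESeq2 (9.35% of all genes tested), 2 with DESeq2 size factors (6.91%), 2 with at least 10 counts (6.99%), 2 without mice 2 and 3 (6.38%), and 1 to 2 with 1 mouse left out (3.79% to 9.26%). Beyond the thresholds applied, the causes were not tested.

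Among prostanoid receptors the count called was 0, in place of 1, without a filter, with at least 10 counts, with limma under either pseudocount, with the replicate block and without mice 2 and 3, and 0 to 1 with 1 mouse left out. For transport and breakdown it was 1, in place of 2, with the upper quartile, no filter, both limma fits, the block and without mice 2 and 3, and 1 to 2 with 1 mouse left out. For other phospholipases A2 it was 0 with the block. For other arachidonate routes it was 1, in place of 2, with both limma fits, the block and without mice 2 and 3, and 1 to 3 with 1 mouse left out. For activity-related genes it was 7, in place of 10, with the block and 8 to 11 in the other alternatives.

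With the upper quartile, the scores of choroid plexus (0.74) and striatum (0.25) passed (adjusted exact permutation p = 0.0472 each), which they did not with TMM (0.72 and 0.23, adjusted 0.0577 and 0.0603). With 1 mouse left out these scores ran from 0.46 to 0.82 and from 0.18 to 0.27, and the meningeal score from 0.79 to 1.19. The choroid plexus score passed in 4 of these 14 fits (without mice 1, 6 or 7 labelled LPAR2-/- or WT mouse 4), the striatum score in 2 (without mouse 6 labelled LPAR2-/- or WT mouse 4) and the meningeal score in 1 (without WT mouse 4).

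Same-numbered mice were not treated as paired in the main fit. After removal of genotype means their correlations ran from −0.33 to 0.31, with 3 of 7 above 0.1, and 3 mice correlated best with their own number. With 7 pairs of mixed sign, these values cannot decide whether mice of the same number share a processing step. Under the replicate block 314 genes were called higher and 272 lower, in place of 494 and 515, and the count of the 10 genes called was 1. The upper quartile gave 616 higher and 377 lower. DESeq2 called 667 higher and 726 lower. Ptger2 rests on 5 to 31 counts per mouse and the untested receptors on at most 12. What size of difference can be detected at such counts was not tested.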
